A study of Mus musculus with 16 samples.

Results

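The lumbar dorsal root ganglion of the wild-type mouse embryo at embryonic day 13.5 was described here from 8 RNA sequencing libraries, out of 16 in the series. The members were chosen by their labels alone: every library whose title carries the wild-type tag, 4 labelled with the importin α3 line (WT_alpha3 45, 54, 55 and 79) and 4 labelled with the importin β1 line (WT_beta 399, 401, 410 and 415). All 8 are C57BL/6, carry no knockout allele per the labels and were made from polyA-selected RNA of dissected tissue. The other 8 libraries are knockouts from those lines and enter no value below except 1 alternative fit. The labels do not say whether each library is a separate embryo or a pool, and name no litter, batch or sex, so the p-values given at the end measure the spread between these libraries only.

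Dorsal root ganglia hold the cell bodies of the somatosensory neurons of the trunk and limbs, together with satellite glia, Schwann cell precursors and blood vessels. The neurons arise from neural crest cells under the neurogenins, keep the homeodomain factors Pou4f1 and Isl1, and depend on neurotrophins of the surrounding tissue. At mid-gestation the first-born, large neurons are already post-mitotic, whereas many small neurons that will become nociceptors are young and have not yet chosen their peptidergic or non-peptidergic fate.

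Levels are CPM, that is counts scaled to a common library size with TMM factors, which removes differences in depth. A longer transcript gives more reads. Apart from ranks by reads, levels of different genes are therefore set against each other only as CPM per kilobase of exon. The exon length is the union of all annotated exons of a gene, not the length of the transcripts expressed here. Error of a level is the SD over the 8 libraries unless stated. The coefficient of variation (CV) is that SD as a percent of the mean. The 8 libraries held 19682595 to 25841307 counts each. At that depth, 13340 genes reached 1 CPM in every library, 12916 of them protein-coding and 323 annotated as long non-coding RNA. No pair of libraries agreed within sampling noise, so all 8 were counted separately.

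The labelled tissue was checked against its defining markers first. Pou4f1, the homeodomain factor of sensory ganglia, lay between 245 CPM in WT_beta 399 and 321 CPM in WT_alpha3 45, with a median of 265 CPM. Isl1, its LIM homeodomain partner, ran from 401 to 544 CPM with a median of 452 CPM. These markers were present in every library. Other tissues were also present, and unevenly. Sets of markers were highest in different libraries. Sympathetic genes were highest in WT_alpha3 45, and embryonic globins and Hox genes of groups 1 to 7 in WT_alpha3 79. Liver genes were highest in WT_beta 399, and skeletal muscle genes in WT_beta 401. Sympathetic genes also stood high in WT_alpha3 79 and WT_beta 401, and the globins in WT_alpha3 45. These 4 libraries were the highest in markers of other cell types, a choice made after their values were seen, so spreads are given with and without them. Hox genes of group 10, which mark the lumbar level, were low in WT_alpha3 79 and WT_beta 399 (values below). In bulk tissue, fewer cells of a type and less RNA per cell cannot be told apart, and this holds for every marker level that follows.

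Ranked by reads, without regard to length, the top symbols included the ribosomal RNA precursor, elongation factors, actin and tubulins. The chaperone genes Hspa8 and Hsp90ab1, the microtubule gene Map1b and the non-coding RNA H19 were also among them. The 10 symbols with the most reads took 4.16% of the CPM (3.91% to 4.52% over libraries), and the top 100 took 14.8%. Rn45s, the ribosomal RNA precursor, led with 9969 ± 2025 CPM (SD, n = 8). Ribosomal RNA carries no polyA tail in textbook accounts, and its lowest value was 7560 CPM in WT_beta 410 and its highest 13175 CPM in WT_alpha3 55. Eef1a1, the elongation factor that delivers aminoacyl-tRNA to the ribosome, followed with 6485 ± 397 CPM and was the highest gene per kilobase, at 2601 ± 159 CPM per kb. Its 8 values lay between 5970 and 7148 CPM, a CV of 6.11%.

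The embryonic globin Hbb-y was next by its mean per kilobase, 2460 CPM per kb, with an SD of 3197 that exceeds the mean. Tubulins and actin followed. The α-tubulin Tuba1a stood at 1781 ± 280 CPM per kb, the cytoplasmic actin Actg1 at 1562 ± 158, the neuron-specific β-tubulin Tubb3 at 1243 ± 186 and the broadly expressed β-tubulin Tubb5 at 1072 ± 141. Tmsb10 and Ptma, small abundant proteins that bind actin and histones respectively, stood at 1535 ± 158 and 1320 ± 214 CPM per kb, and Sncg, the synuclein of peripheral neurons, at 1216 ± 356. The SDs of genes next to each other in this order overlap, so the SDs alone do not resolve the ranks of neighbours. The order within each library was not compared. The ferritin light chain Ftl1 had 1076 ± 240 CPM per kb and was highest, at 2052 CPM, in WT_alpha3 79.

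Among intermediate filaments the spread depended on the gene. Peripherin (Prph), the filament of peripheral and small sensory neurons, ran from 718 CPM in WT_alpha3 79 to 2778 CPM in WT_alpha3 55, with a median of 1862 CPM. WT_alpha3 79 and 45 were the lowest and WT_alpha3 54 and 55 the highest, so the spread lay within a single wild-type group. Neurofilament medium chain, Nefm, ran only from 1682 to 2465 CPM (CV 12.9%), against a CV of 42.8% for Prph. Vimentin (Vim), which glia, fibroblasts and young neurons share, stood at 1993 ± 178 CPM (CV 8.91%). The CVs of Nefm and Vim were below those of Tubb5 (13.2%), Tubb3 (14.9%) and Tuba1a (15.7%). Imprinted growth genes were also in this range: H19, a long non-coding RNA, at 2572 ± 421 CPM, and Igf2, the growth factor transcribed from the same imprinted locus, at 1922 ± 418 CPM. WT_alpha3 79 was the highest library for each, with 3416 CPM of H19 and 2881 CPM of Igf2. The ubiquitin ligase gene Nedd4 was the steadiest of the 25 most abundant symbols, between 1850 and 1996 CPM, a CV of 2.79%.

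**Figure D1:**
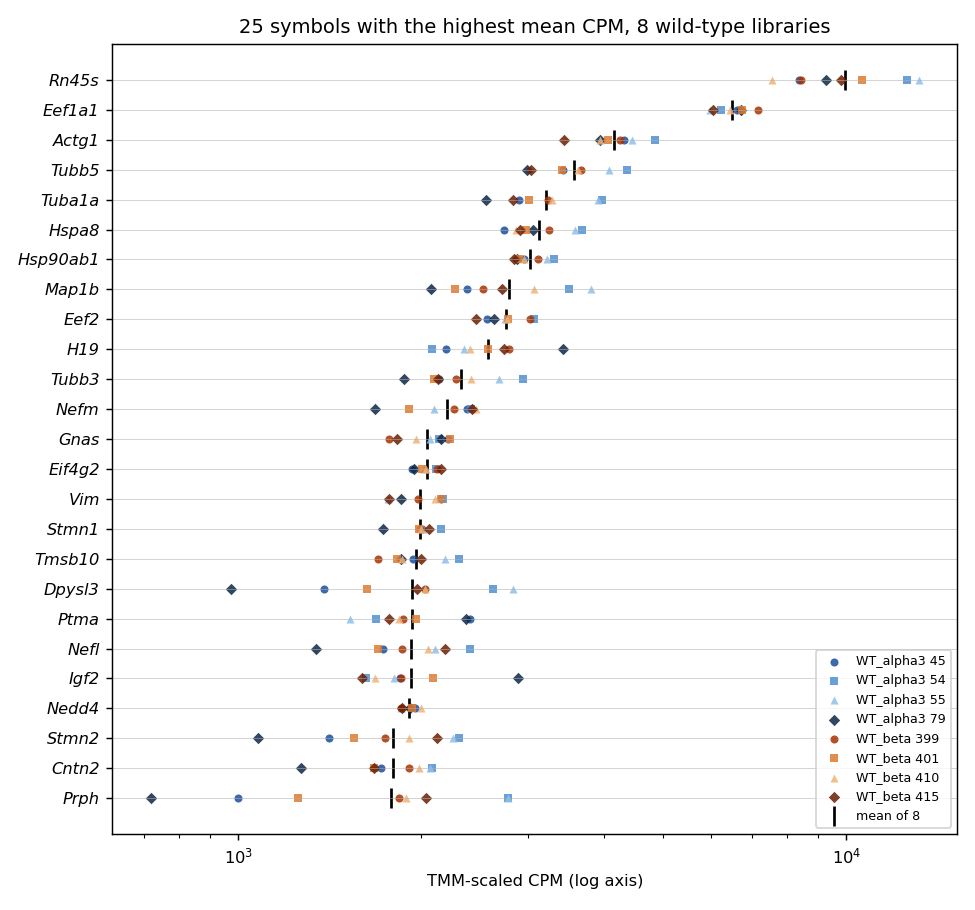
The 25 symbols with the highest mean, each library as a point by its TMM-scaled CPM on a log axis and the mean of 8 as a black tick. Points for Nedd4 and Eef1a1 lie close together, whereas those for Prph and Dpysl3 spread to the left in WT_alpha3 79 and 45.

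The pan-neuronal list made up 2.59% of reads on average, and all 26 of its members were above 1 CPM in every library. Its summed level ran from 17654 CPM in WT_alpha3 79 to 32928 CPM in WT_alpha3 54, with a median of 26340 CPM. None of the 26 genes was highest in WT_alpha3 45, WT_alpha3 79, WT_beta 399 or WT_beta 401, and 21 were highest in WT_alpha3 54 or 55. Map1b, a microtubule-associated protein of growing axons, ran from 2076 to 3801 CPM with a median of 2624, and the growth cone protein Gap43 from 604 to 1489 CPM with a median of 1186. Dpysl3, a semaphorin signalling adaptor, ran from 975 to 2834 CPM. The synaptic vesicle calcium sensor Syt1 and the heavy neurofilament Nefh, which accumulate as neurons mature, ran from 77.1 to 286 CPM and from 31.6 to 102 CPM. Each of these genes was lowest in WT_alpha3 79. The RNA-binding protein Elavl3 (673 to 837 CPM) and Tagln3 (278 to 377.5 CPM) were the steadiest members, with CVs of 8.60% and 8.41%. The median CV of the list was 17.8%, and 10.2% without the 4 libraries named above.

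Among transcription factors, 421 symbols of 32 families were in the table, and 290 of them were at or above 1 CPM in every library. The highest per kilobase among these families was the AP-1 member Jund, at 209 ± 15.3 CPM per kb. Prdm12, a zinc finger regulator required for the nociceptor lineage, stood at 163 ± 35.6, Isl1 at 115 ± 10.7, Tlx3, a homeodomain selector of sensory neurons, at 113 ± 14.1, and Isl2 at 106 ± 26.1. Lower down, the glial factor Sox10 stood at 79.4 ± 12.1 and Pou4f1 at 58.2 ± 6.17 CPM per kb. Hmx1, a homeodomain factor of sensory ganglia outside the 32 families, stood at 84.4 ± 20.6 CPM per kb. Isl1, Tlx3 and Isl2 lie within an SD of each other, so the spread alone does not resolve their order. Sensory selector genes thus held 4 of the 5 highest places.

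The individual values place the lineage factors by library. Prdm12 ran from 275 CPM in WT_alpha3 79 to 543 CPM in WT_alpha3 54, with a median of 386 CPM. Tlx3 ran from 144 to 217 CPM (median 170) and Isl2 from 126 to 302 CPM (median 245). Prdm12 and Isl2 were lowest in WT_alpha3 79, and all 3 were highest in WT_alpha3 54. Runx1, the Runt factor that later divides the non-peptidergic from the peptidergic nociceptors, ran from 23.8 CPM in WT_alpha3 79 to 155 CPM in WT_alpha3 54. Runx3, the Runt factor of proprioceptors, ran from 42.9 CPM in WT_alpha3 55 to 107 CPM in WT_alpha3 45. The libraries with the most Runx3, WT_alpha3 45 and 79, were thus those with the least Runx1. Their common cofactor Cbfb was steadier, from 178 to 267 CPM. Etv1, an Ets factor of proprioceptors, ran from 55.9 to 156 CPM, and Prdm8 from 25.5 to 187 CPM, each lowest in WT_alpha3 79. Tlx1 stayed below 0.42 CPM in every library.

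The largest CVs of the pan-sensory list were those of Eya1 and of neurogenic factors. Eya1, a transcriptional coactivator and phosphatase, had 58.4 CPM in WT_alpha3 45, 24.2 CPM in WT_alpha3 79 and 23.98 CPM in WT_beta 401, against 2.10 to 5.79 CPM in the other 5, and it is also on the sympathetic list. Neurog1, which specifies the later wave of sensory neurons, had 59.0 CPM in WT_alpha3 79 and 50.3 CPM in WT_alpha3 45, and 1.29 to 16.3 CPM in the other 6. Neurod1, its downstream bHLH factor, had 149 and 152 CPM in the same libraries and 16.2 to 72.4 CPM elsewhere, and Neurod4 33.6 and 32.5 CPM against 0.568 to 11.6 CPM. Neurog2, of the early wave, was highest in WT_alpha3 79 at 7.18 CPM and had a mean of only 2.06 ± 2.32 CPM. Pou4f2 went the other way, from 15.7 CPM in WT_alpha3 45 to 57.1 CPM in WT_alpha3 54. Across the 19 pan-sensory factors, 14 were highest in WT_alpha3 45 or 79. Their summed level differed by only 1.47-fold between the highest library, at 2627 CPM, and the lowest, at 1791 CPM, since Isl1, Sox11, Pou4f1 and Sox4 made up most of it. Of all 327 factors with a mean of at least 1 CPM, the median CV was 24.9%, and 12.6% without the 4 libraries.

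Of receptor genes, 196 of 296 in 17 families were at or above 1 CPM in every library. Ngfr, the p75 neurotrophin receptor of neurons and glia, stood at 241 ± 71.3 CPM per kb. Ntrk2, the BDNF receptor, ran from 106 to 176 CPM and Ntrk3, the NT-3 receptor of proprioceptors, from 29.7 to 46.8 CPM. Per kilobase these amounted to 7.66 ± 1.07 and 1.21 ± 0.182 CPM per kb, below Ngfr. Annotated exons that the expressed transcripts lack would lower such values, so the size of this gap depends on the annotation. Ntrk3 was highest in WT_alpha3 79.

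The GDNF family receptors separated the libraries more. Ret, the signalling subunit, ran from 125 CPM in WT_alpha3 79 to 513 CPM in WT_alpha3 55, with a median of 318, and Gfra3, its artemin-binding partner, from 93.8 to 286 CPM with a median of 198. Gfra2, which binds neurturin, ran from 68.7 to 109 CPM and Gfra1, which binds GDNF, from 84.2 to 130 CPM. Ret and Gfra3 were lowest in WT_alpha3 79 and 45, whereas Gfra1 was highest in WT_beta 401 and WT_alpha3 45. Sort1, the sorting receptor for neurotrophin precursors, was steady at 175 ± 8.54 CPM. Gfral, the GDF15 receptor of the hindbrain, had no count in any library, which allows up to 0.113 to 0.155 CPM by library (3 counts, counting error only). Over the 16 neurotrophic receptors the summed level ran from 2220 CPM in WT_alpha3 79 to 4658 CPM in WT_alpha3 54.

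Other receptors near the top served axon guidance, glia and G protein signalling. Ednrb, the endothelin receptor of neural crest and glia, stood at 126 ± 18.3 CPM per kb, Cntfr, the ciliary neurotrophic factor receptor, at 125 ± 19.6, and the integrin subunit Itgb1 at 88.8 ± 4.05. Mrgpra6, of a family of near-identical sensory G protein-coupled receptors among which reads may be split, stood at 153 ± 21.8 CPM per kb. Nrp1 and Plxna4, subunits of the semaphorin 3A receptor, had 450 ± 60.9 and 403 ± 94.9 CPM. Npr2, the receptor of C-type natriuretic peptide that is needed for sensory axons to branch in the spinal cord, ran from 146 CPM in WT_alpha3 55 to 409 CPM in WT_alpha3 45 and so went against Ret. Among opioid receptors, Oprl1 had 23.7 ± 3.58 CPM, Oprd1 7.75 ± 3.66 CPM and Oprk1 1.17 ± 0.296 CPM. The median CV of the receptors was 23.0%, and 13.8% without the 4 libraries.

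Ion channels were headed by P2rx3, the ATP-gated channel of nociceptors, at 227 ± 63.3 CPM per kb. It ran from 329 CPM in WT_alpha3 79 to 823 CPM in WT_alpha3 54, with a median of 686 CPM, and WT_alpha3 45 was the next lowest at 470 CPM. The calcium channel subunit Cacnb3 stood at 93.9 ± 14.2 CPM per kb. Sodium channels of nociceptors were already present: Scn3b at 49.5 ± 13.5, Scn10a (Nav1.8) at 41.9 ± 17.4 and Scn9a (Nav1.7) at 41.2 ± 10.4 CPM per kb, an order not resolved by their spread. Scn10a ran from 93.6 CPM in WT_alpha3 79 to 527 CPM in WT_alpha3 55, with a median of 344 CPM. Of 260 channel symbols in 12 families, 154 were at or above 1 CPM in every library.

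Several sensory transduction channels differed widely between libraries. Trpv1, the heat and capsaicin channel, had 2.66 CPM in WT_alpha3 79, 22.2 CPM in WT_alpha3 45 and 59.1 to 145 CPM in the other 6. Piezo2, the mechanotransduction channel of touch and proprioception, ran from 89.5 CPM in WT_alpha3 79 to 398 CPM in WT_alpha3 55, with a median of 221. Scn11a (Nav1.9), a late nociceptor channel, had 45.9 CPM in WT_alpha3 55, 21.2 CPM in WT_alpha3 54 and at most 9.10 CPM elsewhere. For each of these, WT_alpha3 79 was lowest and WT_alpha3 55 highest. The cold channel Trpm8 and the irritant channel Trpa1, chosen here after their values were seen, stayed at or below 0.266 and 0.602 CPM, and the non-peptidergic receptor Mrgprd, chosen likewise, at or below 0.672 CPM. Channels had the widest spread of the 3 classes, with a median CV of 30.8%, and 17.9% without the 4 libraries. Of the 184 channels with a mean of at least 1 CPM, 105 were highest in WT_alpha3 54 or 55. Of the same 184, 94 were lowest in WT_alpha3 79.

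**Figure D2:**
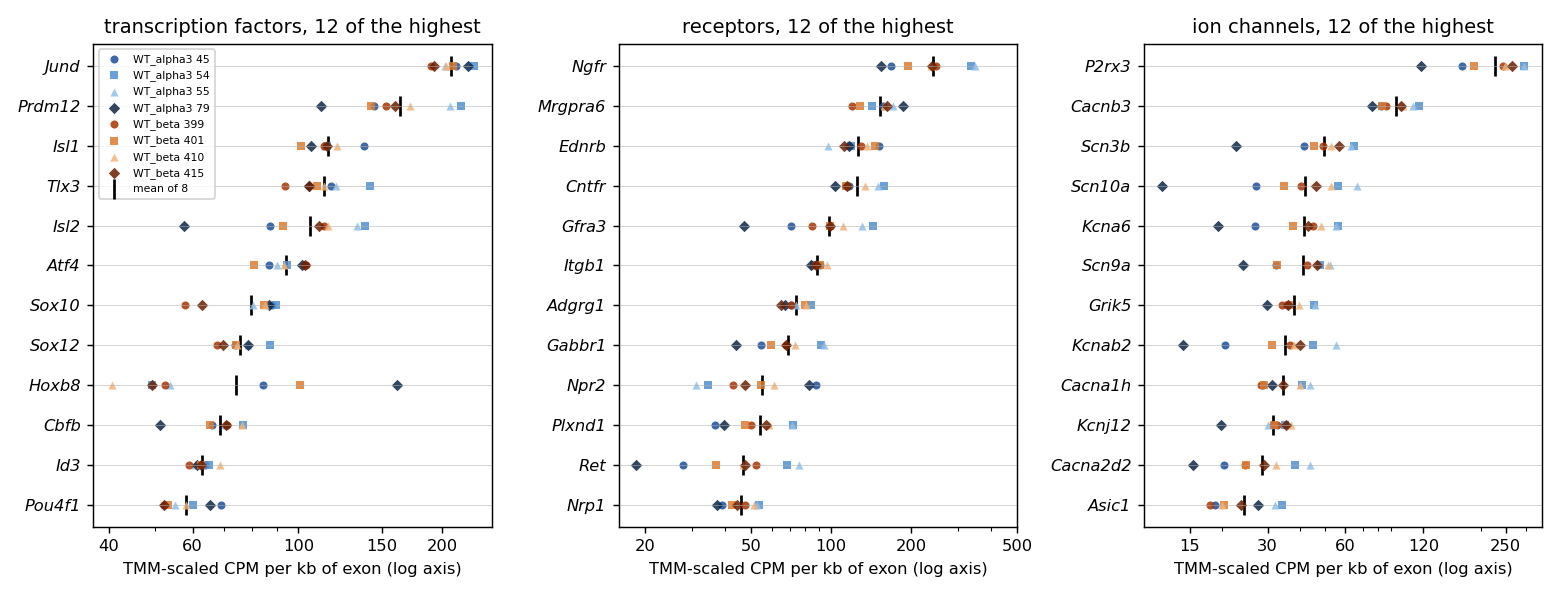
For each class, 12 of the transcription factors, receptors and ion channels with the highest TMM-scaled CPM per kb of exon (log axis), each library as a point and the mean of 8 as a black tick. WT_alpha3 79, the dark blue diamond, lies at the left for Ret, P2rx3 and Scn10a and at the right for Hoxb8, while Itgb1, Id3 and Sox12 vary little.

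Neuropeptides were low as a group: their summed level ran from 69.2 CPM in WT_alpha3 79 to 321 CPM in WT_alpha3 54, and 8 of 19 were at or above 1 CPM in every library. Galanin (Gal) contributed most of the reads, from 12.9 CPM in WT_alpha3 79 to 190 CPM in WT_alpha3 54 with a median of 130 CPM. Adcyap1, which encodes PACAP, ran from 15.2 to 81.5 CPM. The peptides that define mature peptidergic nociceptors were scarce, with Tac1 (substance P) at 9.13 ± 6.70 CPM and Calca (CGRP) at 2.49 ± 1.37 CPM. Vip was above 1 CPM only in WT_alpha3 45 and WT_beta 401, at 5.92 and 4.77 CPM, the libraries highest in Dbh and in muscle genes respectively.

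The glial and Schwann cell precursor list summed to 2796 CPM in WT_alpha3 79 and 4390 CPM in WT_alpha3 54, and 25 of its 29 members were at or above 1 CPM in every library. The list shares Ngfr and Gfra3, which neurons also express, with the neurotrophic receptors. Genes that mark the whole glial lineage were even: Sox10, the neural crest and glial factor, ran from 177 CPM in WT_beta 399 to 274 CPM in WT_alpha3 54, with a median of 259 CPM, and Erbb3, the neuregulin receptor, from 65.7 to 92.1 CPM. The fatty acid carrier of immature glia, Fabp7, ran from 282 to 480 CPM. Genes of later Schwann cell precursors were less even. S100b, a calcium-binding protein of glia, ran from 2.96 to 27.3 CPM with a median of 11.5. Dhh, the hedgehog ligand of Schwann cells, ran from 4.87 to 17.9 CPM. In both, WT_alpha3 79 and 45 were the lowest and WT_alpha3 54 and 55 the highest, the same ends as for Prph and Trpv1. Sox2 and Sox9, found in glial progenitors, were highest in WT_alpha3 79 at 116 and 36.0 CPM. Gfap stayed below 5 CPM and Egr2, the factor of myelination, at or below 2.90 CPM.

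Cell cycle genes ran against the neuronal genes. All 30 were at or above 1 CPM in every library, and 29 of the 30 were highest in WT_alpha3 79, Ccnd1 being highest in WT_alpha3 45. Their summed level was 3845 CPM in WT_alpha3 79, 2710 in WT_alpha3 45, 2390 in WT_beta 399 and 1844 in WT_beta 401, against 998 to 1244 CPM in the other 4. The proliferation antigen Mki67 had 491 CPM in WT_alpha3 79 and 90.3 CPM in WT_alpha3 54, with a median of 142. Ccnd1, cyclin D1 of the G1 phase, ran from 52.3 to 363 CPM, and Top2a, the topoisomerase of dividing cells, from 58.1 to 254 CPM. The list's median CV was 54.4%, and 13.9% without the 4 libraries. The origin of these reads was not tested: the libraries high in cell cycle genes are also those high in globin, liver, sympathetic or muscle genes.

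Progenitor and Notch genes were less extreme, from 743 CPM in WT_beta 399 to 1507 CPM in WT_alpha3 79, and 17 of 21 were highest in WT_alpha3 79. The receptor Notch1 ran from 123 to 242 CPM and its nuclear partner Rbpj from 122 to 170 CPM. The neurogenic bHLH gene Hes6 had 125 CPM in WT_alpha3 79 and 109 CPM in WT_alpha3 45, and 37.4 to 68.9 CPM in the other 6. In WT_beta 399, cell cycle genes were high and progenitor genes were at their lowest. The immediate early genes, which respond to dissection and stress, summed to 753 to 963 CPM, much of it from Jund at 349 ± 25.5 CPM. Single members varied more: Fos ran from 1.89 CPM in WT_beta 410 to 18.3 CPM in WT_beta 415, and Fosb from 0.163 CPM in WT_alpha3 45 to 11.5 CPM in WT_alpha3 79.

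Hox genes, which record position along the body axis, differed between libraries in a graded way. Genes of group 10 are those known for patterning the lumbar region. Hoxa10 had 85.6 CPM in WT_beta 401, 79.8 in WT_beta 410, 75.3 in WT_beta 415 and 68.0 in WT_alpha3 54. It had 36.9 CPM in WT_alpha3 55 and 22.9 CPM in WT_alpha3 45, and only 4.47 CPM in WT_alpha3 79 and 1.92 CPM in WT_beta 399. Hoxd10 followed the same separation, with 0.853 CPM in WT_alpha3 79 and 0.383 CPM in WT_beta 399 against 7.23 to 43.2 CPM in the other 6. Hoxc10 and Hoxd9, named after their values were seen, had 4.72 and 3.21 CPM in WT_alpha3 79, 2.65 and 1.69 CPM in WT_beta 399, and at least 26.3 and 13 CPM elsewhere. For group 11, Hoxd11 and Hoxc11, WT_alpha3 55 joined the low libraries, with 0.930 and 0.465 CPM. WT_alpha3 79 and WT_beta 399 thus lacked most of the group 10 reads that the other libraries carried, although all 8 share the lumbar label.

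The sum over groups 8 to 13 did not follow group 10. It was highest in WT_alpha3 79, at 1023 CPM, and lowest in WT_beta 399, at 256 CPM, and Hoxb8 and Hoxb9 carried much of it. Hoxb9 was highest in WT_alpha3 79, at 382 CPM, and lowest in WT_beta 399, at 22.8 CPM, and Hoxb8 was likewise highest in WT_alpha3 79, at 424 CPM against a median of 140. The more anterior genes of groups 1 to 7 included 19 with a mean of at least 1 CPM. Of these 19, 18 were highest in WT_alpha3 79. Hoxc5 had 56.5 CPM there, 27.8 CPM in WT_alpha3 45 and 3.83 to 11 CPM in the other 6. The sum over groups 1 to 7 was 1330 CPM in WT_alpha3 79, 854 CPM in WT_alpha3 45 and 539 to 633 CPM elsewhere. The median CV of these 19 genes was 45.0%, and 26.4% without WT_alpha3 79. WT_beta 399, at 615 CPM, was not among the high ones. Hoxd1, which nociceptors express, ran the other way, from 7.38 CPM in WT_alpha3 79 to 54.8 CPM in WT_alpha3 55. WT_alpha3 79 was also the highest library in globins and cell cycle genes, and WT_beta 399 in liver genes, and the part of these in the Hox values was not tested.

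**Figure D3:**
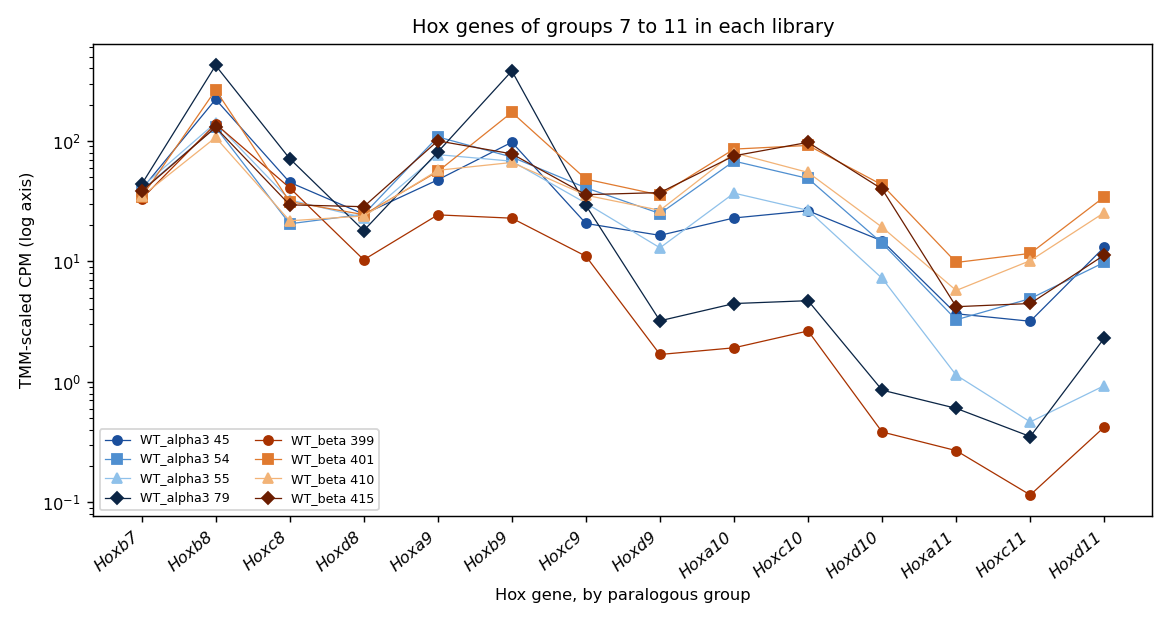
TMM-scaled CPM (log axis) of 14 Hox genes ordered by paralogous group, each library as a marker joined by a thin line for the eye only. From Hoxd9 rightward WT_alpha3 79 and WT_beta 399 lie below nearly all other libraries, with Hoxa10 at 4.47 and 1.92 CPM, and WT_alpha3 55 joins them at group 11.

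Sympathetic neurons, whose ganglia lie beside the vertebral column, share the neural crest origin of sensory neurons and make noradrenaline. Dbh, dopamine β-hydroxylase, had 155 CPM in WT_alpha3 45, 75.8 CPM in WT_alpha3 79 and 65.4 CPM in WT_beta 401, 8.09 CPM in WT_beta 399, and 0.748 to 2.13 CPM in the other 4. Hand2, a bHLH factor of the sympathetic lineage, had 116, 59.4 and 55.9 CPM in those 3 libraries and 0.795 to 8.70 CPM elsewhere. The 3 libraries were thus set apart by both of these genes, and 12 of the 15 listed genes were highest in WT_alpha3 45. Tyrosine hydroxylase (Th), which embryonic sensory neurons are also known to express, did not follow them. It ran from 82.0 CPM in WT_alpha3 79 to 280.2 CPM in WT_beta 410, and the 6 other values lay between 203 and 280.1 CPM. Chga, a granule protein of neuroendocrine cells and neurons, ran only from 112 to 164 CPM.

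Blood was visible in every library through the embryonic globins. Hbb-y, the εy chain of primitive red cells, had 5747 CPM in WT_alpha3 79, 3595 CPM in WT_alpha3 45 and 1080 CPM in WT_beta 399, against 265 to 607 CPM in the other 5. Hba-x, the ζ chain, had 3195 CPM in WT_alpha3 79, 1210 CPM in WT_alpha3 45 and 49.3 to 230 CPM elsewhere. Hbb-bh1, an early embryonic β-like chain, had 335 CPM in WT_alpha3 79, 130 CPM in WT_alpha3 45, 29.98 CPM in WT_beta 399, and 2.25 to 9.19 CPM elsewhere. The adult chains Hba-a1, Hba-a2 and Hbb-bt are listed at 0 in all 8 libraries, and their near-identical copies may have lost reads in counting. Another adult chain, Hbb-bs, ran from 0.642 CPM in WT_beta 410 to 13.9 CPM in WT_alpha3 79. The membrane and nuclear genes of red cell precursors had a different order of libraries. Slc4a1, the anion exchanger of red cells, had 800 CPM in WT_alpha3 79 and 633 CPM in WT_beta 399, but 165 CPM in WT_alpha3 45. Klf1, the erythroid zinc finger factor, had 53.9 and 53.3 CPM in WT_alpha3 79 and WT_beta 399, and 5.76 CPM in WT_alpha3 45, within the range of 2.29 to 6.22 CPM of the other 5. Of these erythroid genes, WT_alpha3 45 was high in the embryonic globins and not in Klf1. Its Slc4a1 value lay above the median of 74.7 CPM but far below those of WT_alpha3 79 and WT_beta 399.

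Liver genes had the widest range of all lists. They summed to 5578 CPM in WT_beta 399, where all 15 were highest, and to 59.7 CPM in WT_beta 410, a 93.4-fold range. The next highest sum was 497.7 CPM. The median CV of the list was 191%, and 83.5% without WT_beta 399. α-Fetoprotein (Afp) had 2150 CPM in WT_beta 399, 128 to 144 CPM in WT_alpha3 79, WT_beta 401 and WT_beta 415, 19.9 to 28.8 CPM in the other 3 WT_alpha3 libraries, and 2.53 CPM in WT_beta 410. Albumin (Alb) had 1767 CPM in WT_beta 399, 2.33 CPM in WT_beta 410 and a median of 76.4 CPM. The lipoprotein gene Apob had 143 CPM in WT_beta 399 and 0.281 CPM in WT_beta 410. WT_beta 399 was high in both liver and red cell precursor genes. WT_alpha3 79, with a liver sum of 497.7 CPM, was at least as high in Slc4a1 and Klf1. The source of these reads was not tested. Macrophage genes were also highest in WT_beta 399, at 308 CPM in sum against 133 to 217 CPM elsewhere. The mannose receptor Mrc1 had 47.4 CPM there against 13.4 to 26.2 CPM.

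Muscle and spinal cord reads were highest in WT_beta 401. Skeletal muscle genes summed to 1314 CPM there and to 127 CPM in WT_alpha3 54. Of the 19 with a mean of at least 1 CPM, 17 were highest in WT_beta 401. Embryonic myosin heavy chain, Myh3, had 283 CPM in WT_beta 401, 10.1 to 97.0 CPM elsewhere and a median of 55.5 CPM, and cardiac α-actin, Actc1, which embryonic skeletal muscle expresses, had 214 CPM against 22.4 to 128 CPM. Spinal cord genes were low throughout, with sums of 26.4 to 148 CPM. Pax2, of inhibitory interneurons, had 26.7 CPM in WT_beta 401 and 23.6 CPM in WT_alpha3 79, against 1.32 to 12 CPM elsewhere, and Lhx5, of dorsal interneurons, 16.5 and 19.2 CPM against 1.04 to 5.88 CPM. The same pair of libraries was thus highest for each.

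The vascular and connective tissue content was the most even of the non-neural classes. Endothelial genes summed to 496 to 750 CPM with all 16 members above 1 CPM everywhere, and the VE-cadherin gene Cdh5 ran from 94.7 to 153 CPM. Fibroblast and meningeal genes summed to 4057 to 6220 CPM, of which Igf2 was the largest part. Collagens Col1a1 and Col3a1 ran from 470 to 877 CPM and from 468 to 901 CPM, each highest in WT_beta 401. Cartilage genes summed to 301 to 409 CPM. Epidermal keratins were low, with Krt5 at 6.95 ± 3.05 CPM. Cdh1, E-cadherin, was listed with the epidermis but did not follow Krt5: it ran from 4.22 CPM in WT_alpha3 79 to 66.2 CPM in WT_alpha3 55, the same ends as Trpv1 and Scn10a.

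**Figure D4:**
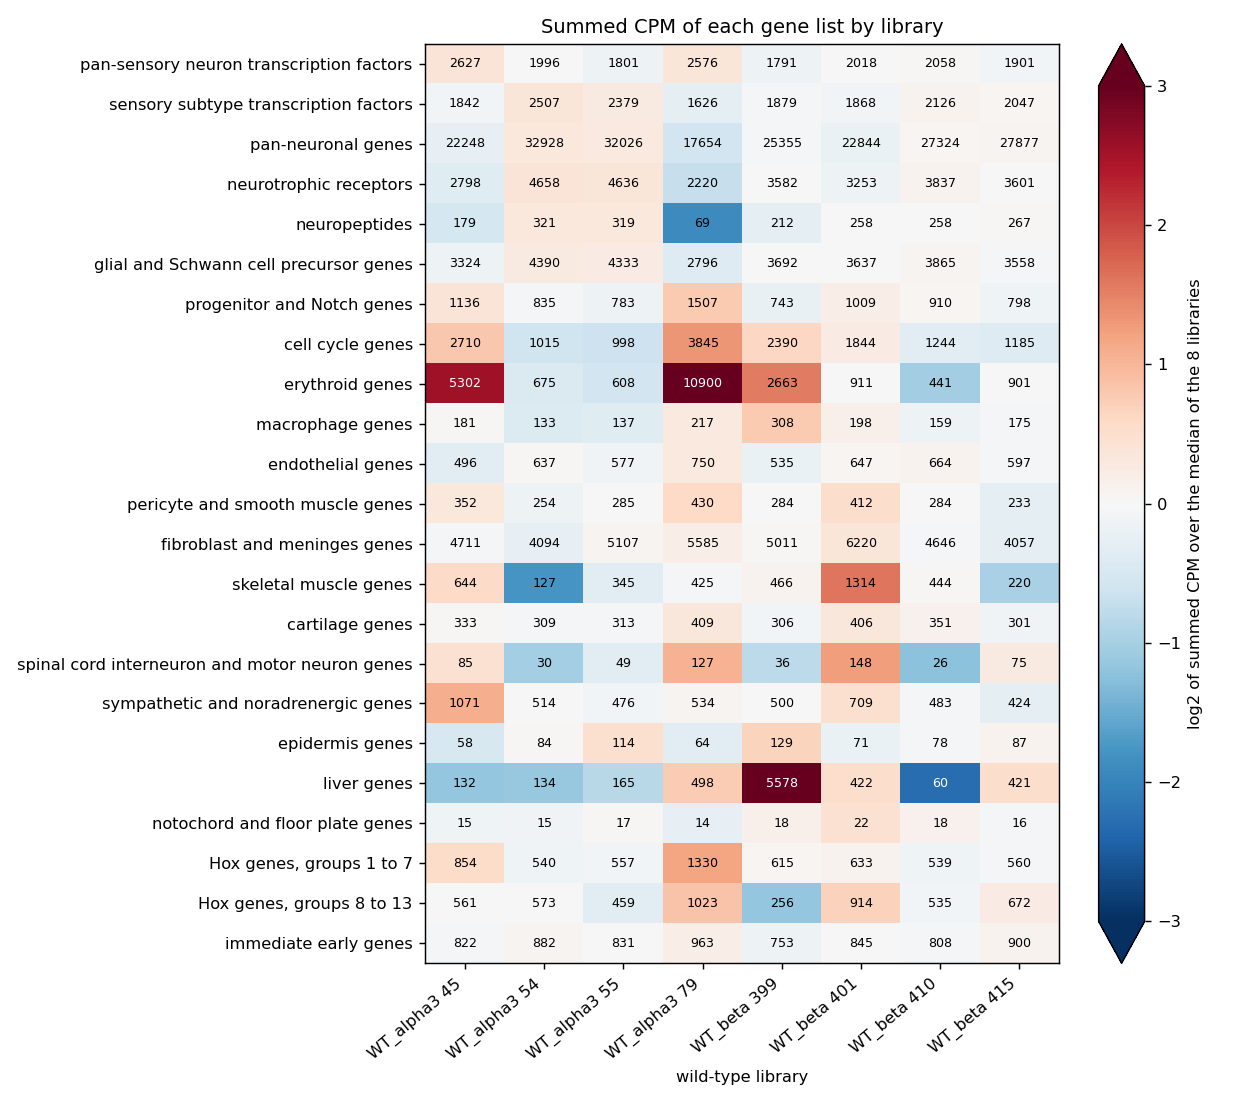
Summed TMM-scaled CPM of 23 gene lists (rows) in the 8 libraries (columns), printed in each cell and coloured by the log2 of its ratio to the median of the row. The darkest cells are erythroid genes in WT_alpha3 45 and 79 and liver genes in WT_beta 399, at 5302, 10900 and 5578 CPM, while the endothelial and cartilage rows stay pale.

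Spread between libraries exceeded counting error at every level of abundance. Among 10691 genes with a mean of at least 10 CPM the median CV was 12.2%, with 597 genes under 5% and 74 over 100%. From 100 to 1000 CPM, 2493 genes had a median CV of 11.8% where counting alone gives 1.63%, and from 1 to 10 CPM, 3663 genes had 27.5% where counting gives 10.8%. Without the 4 libraries the median CV of the 10691 genes was 7.76%, and 8 genes exceeded 100%. Counting error was therefore a minor part of the spread above 10 CPM. Of the 74 genes with a CV over 100%, 34 were highest in WT_alpha3 79, 24 in WT_beta 399 and 8 in WT_alpha3 45. The closest pair, WT_alpha3 54 and 55, had a median absolute log2 difference of 0.083, with 36 genes more than 2-fold apart. The farthest, WT_alpha3 55 and 79, had 0.36, with 1508 genes more than 2-fold apart, although all 3 carry the same group label.

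**Figure D5:**
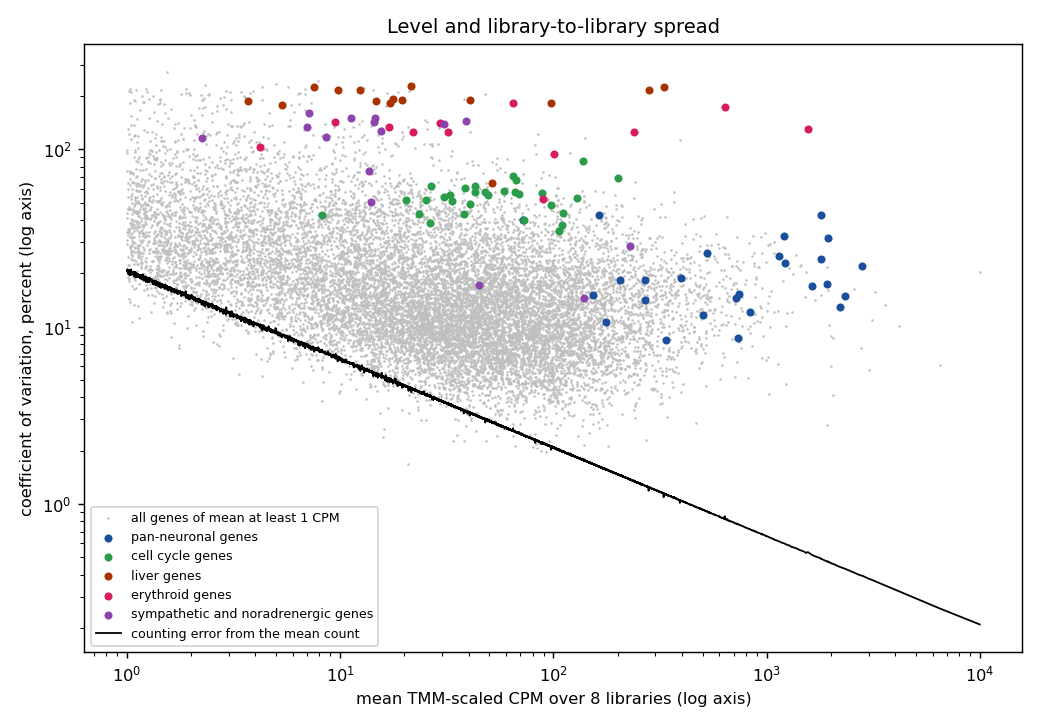
CV in percent against mean TMM-scaled CPM over the 8 libraries (log axes), with each gene of mean at least 1 CPM in grey and members of 5 lists in colour. The black line is the error that counting alone gives. Liver genes lie at or above 64.3%, erythroid genes at or above 52.8% and sympathetic genes between 14.5% and 161%. Cell cycle genes lie around their median of 54.4%, and pan-neuronal genes lower at their median of 17.8%.

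The 10 largest CVs among genes of at least 10 CPM all belonged to genes of liver plasma proteins, each highest in WT_beta 399 and lowest in WT_beta 410. They are Apob (227%), Afp (225%), the plasminogen gene Plg (222%), Fga, Alb, Serpina1b, C3, Serpinf2, Ambp and Serpina6 (205%). The 10 smallest belonged to genes of general cell functions. Mkks, a chaperonin-like protein of the centrosome and basal body, had 20.01 to 21.1 CPM (CV 1.69%), Tnpo3, a nuclear import receptor for splicing factors, 133 to 141 CPM (1.82%), and Pik3ca, the catalytic subunit of a lipid kinase, 80.9 to 86.1 CPM (2.08%). The others were Tmed7, Adar, Gnl2, Impad1, Rrp1, Ube2h and Hbs1l, none above 2.19%. Counting error alone would give 4.56% for Mkks, 2.27% for Pik3ca and 1.78% for Tnpo3. The CV was below counting error for 7 of these 10 genes, namely Mkks, Tmed7, Adar, Pik3ca, Gnl2, Impad1 and Hbs1l, so their small CVs do not measure a spread beyond counting.

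Windows from 40 to 11 bases before the annotated start are shown for uneven and steady genes, the globins among them not being in the 10 largest CVs,, so that the letters where a TATA box would lie can be read beside their spread. They come from the RefSeq promoter table on GRCm38.p6, each is read 5′ to 3′ on the strand of the gene, and capitals mark CG dinucleotides. The uneven genes are the globins Hba-x (chr11:32276560-32276589, plus strand) and Hbb-y (chr7:103853218-103853247, minus strand) and the liver genes Alb (chr5:90460830-90460859, plus strand) and Afp (chr5:90490674-90490703, plus strand).
Hba-x: tgaccatgtgtatataaaggagacactggg
Hbb-y: tgtctgtgaagcataaaaggccaccacttc
Alb: taagtatggttaatgatctacagttattgg
Afp: ggttactagttaacaggcatcccttaaaca
The steady genes are Mkks (chr2:136891417-136891446, minus strand), Tnpo3 (chr6:29609860-29609889, minus strand) and Pik3ca (chr3:32397025-32397054, plus strand).
Mkks: cagaacagaggaaaCGccacctaggactgg
Tnpo3: ggtgcaccaggCGgaagtgtgccaaagtct
Pik3ca: tctttgcagccctgtttcCGgggCGttgca

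The 4 windows of uneven genes hold no CG, and the 3 of steady genes hold 1 or 2, but other uneven genes do not share this. The windows of Fga and Apoa1, with CVs of 217% and 191%, each hold 1 CG. Over the whole 300 bases of the table's entry, Hba-x holds 2 CG, Hbb-y 1, Alb 3 and Afp 3, against 18 in Mkks, 17 in Tnpo3 and 20 in Pik3ca. Apob, with the largest CV, holds 9, above the median of 7 over all 32851 starts. The motif TATAAA, searched on the strand of the gene from 40 to 20 bases before the start, was found in Hba-x among these 7 genes, and 1.99% of all starts hold it. The genes were picked by their CV or their place in a list, so the count describes these 7 and no other genes.

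WT_beta was set against WT_alpha3 across 15337 genes with edgeR. The ± of a log2 fold change is its standard error, derived from the test statistic, and not an SD over libraries. After Benjamini-Hochberg adjustment 9 genes passed, which is 0.0587% of those tested, with 4 higher in WT_beta (0.0261%) and 5 lower (0.0326%). Xist, the RNA that coats the silenced X, had 499 to 995 CPM in the 4 WT_beta libraries and 1.136 to 2.76 CPM in the 4 WT_alpha3 libraries (log2 fold change 8.78 ± 0.40, edgeR adjusted p = 0.000199). The Y-linked genes ran the other way: Ddx3y had 33.8 to 38.1 CPM in WT_alpha3 and at most 0.266 CPM in WT_beta (-8.29 ± 0.46, edgeR adjusted p = 0.000524), and Kdm5d, Eif2s3y and Uty also passed. Groups did not overlap for any of these. The label of the line and the sex-linked reads therefore cannot be told apart in these libraries.

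The remaining 4 calls are autosomal. Zfp932, a KRAB zinc finger gene on chromosome 5, had 31.3 to 36.8 CPM in WT_beta and 12.4 to 18.0 CPM in WT_alpha3 (log2 fold change 1.19 ± 0.13, edgeR adjusted p = 0.0220). The long non-coding RNA Gm15446, annotated on the same chromosome, had 1.99 to 3.37 CPM against 0.262 to 0.408 CPM. Zfp932 spans chr5:109996502-110012266 and Gm15446 spans chr5:109933563-109941710 on GRCm38, so these called genes lie near each other. Gm3893, a transcribed pseudogene on chromosome 4, was also higher in WT_beta. The long non-coding RNA 1500015A07Rik was lower, at 3.95 ± 0.60 against 15.9 ± 2.04 CPM (SD, n = 4 per line). Gm3893, Gm15446 and 1500015A07Rik are predicted or clone names and were named because so few genes passed. Zfp932 missed the threshold when any 1 library other than WT_alpha3 45 was left out (log2 fold change 1.11 to 1.22), and Gm15446 when WT_alpha3 54 was left out (2.95). Without WT_alpha3 54 the count of higher genes was 2. With all 16 libraries in the fit, Xist, Ddx3y, Kdm5d, Eif2s3y, Uty and Gm15446 kept their direction and missed it.

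Apart from the sex-linked list, no member of the other 23 lists passed. Of 402 members tested, 0 were called by edgeR or by DESeq2, and 15 had an unadjusted p under 0.05 (6 higher, 9 lower), beside 519 of all 15337 genes. The same was true of the classes: 0 of 343 transcription factors, 0 of 240 receptors and 0 of 208 channels were called by either tool, with 14, 11 and 4 at an unadjusted p under 0.05. The result rests on which libraries enter. Without WT_alpha3 45 and 79 and WT_beta 399 and 401, which leaves WT_alpha3 54 and 55 against WT_beta 410 and 415, 1015 of 15216 genes passed, 284 higher and 731 lower in WT_beta. In that fit, 22 members of the 23 lists were called higher and 25 lower. Transcription factors had 14 higher and 14 lower, receptors 9 and 16, and channels 4 and 27. All these counts compare 2 libraries with 2, and line and sex-linked reads cannot be told apart in them.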

How the data were processed

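Lumbar dorsal root ganglia of embryonic day 13.5 were sequenced by the submitters after polyA selection, per the labels' protocols. The values used are raw counts of reads for each gene symbol, as whole numbers, which the authors deposited without scaling. Per the submitters' processing notes, the tools were DESeq2 1.6.3, HTSeq 0.6.1p1, TopHat2 2.0.10, cutadapt and bcl2fastq 2.17.1.14, on mm10, with no role or order stated. What annotation and strand setting the counting used is not given in the sources used here. Genes that overlap, lie antisense or have near-identical copies are therefore uncertain. A second table of normalized values was not used here.

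The 24421 symbols were scaled with TMM factors of the 8 wild types (0.951 to 1.028) in edgeR 4.0.16 under R 4.3.3, and tables were made with pandas 2.3.3 under Python 3.11.15. Of these symbols, 4399 had no count in the 8 libraries. No symbol begins with mt-, and mitochondrial transcripts were not analysed here. Exon lengths came from GENCODE vM21 on GRCm38 (24042 symbols matched). Positions and gene types came from RefSeq on GRCm38.p6 (24300 symbols matched), as did the promoter letters. Totals of 19682595 to 25841307 counts make counting error a minor part of the median spread above 10 CPM. Chi-square per degree of freedom between pairs of libraries was 6.30 to 137, so no pair is repeat sampling of the same library. It cannot tell whether libraries share an embryo or pool, since separate preparations also differ beyond counting.

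Groups came from the titles. WT_beta was tested against WT_alpha3 with edgeR's quasi-likelihood test, the filterByExpr filter (minimum count 10, minimum total 15) and 2-sided p-values with Benjamini-Hochberg adjustment at 0.05. On simulated counts of 15202 genes for this comparison, 69 of 100 genes changed 2-fold and 97 of 100 changed 8-fold were called, with 4 false calls. All other results are levels and spreads without a test. Alternatives were library size scaling, DESeq2 size factors, DESeq2 1.42.0, other filters, all 16 libraries, leaving out each library and, added after the data were seen, leaving out 4 libraries.

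The 24 gene lists, the families and the libraries described were chosen with earlier results of these data known. By rule the text names from the 25 genes highest in CPM and the 10 highest per kilobase, each list's 4 highest members, its 3 largest CVs at 1 CPM or more and its 2 lowest p-values, each family's 3 highest, the 10 largest and 10 smallest CVs at 10 CPM or more, and the called genes. Outside the rule, and chosen after their values were seen, are Apoa1, Calca, Dhh, Elavl3, Erbb3, Gap43, Gfra2, Gfral, Hand2, Hba-a1, Hba-a2, Hbb-bs, Hbb-bt, Hmx1, Hoxc10, Hoxd1, Hoxd10, Hoxd9, Klf1, Mrgprd, Neurod4, Ntrk3, Pou4f2, Scn11a, Sort1, Sox2, Tac1, Tagln3, Trpa1 and Trpm8. Some genes are not reported here.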

Additional observations from a re-analysis of the deposited data

Results flagged for a closer look

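For 5 lists and 30 genes, a single library stood so far from the other 7 that its gap to the nearest exceeded 0.526 of the whole range, Dixon's critical value for 8 samples. Of 179 lists and genes examined, 35 were past it. Chance flags about 1 in 20, but the genes were named partly for their large spread, so the number past it cannot be read against that share. Many of them rest on the same libraries, so they are not independent. No explanation was tested.

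WT_beta 399 stood apart for liver. Its summed liver level was 5578 CPM, against 497.7 CPM in the next library. The plasma protein genes followed with Afp at 2150 CPM, Alb at 1767, Serpina6 at 288, Apoa1 at 229, Apob at 143, C3 at 130, Serpinf2 at 115, Ambp at 101, Serpina1b at 90.4, Plg at 84.0 and Fga at 79.0 CPM. The macrophage receptor Mrc1 stood apart there too, at 47.4 CPM.

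WT_alpha3 79 stood apart for blood, for Hox genes of groups 1 to 7 and for progenitor factors. The erythroid sum was 10900 CPM, with Hba-x at 3195 and Hbb-bh1 at 335 CPM. The sum of Hox groups 1 to 7 was 1330 CPM, with Hoxc5 at 56.5 CPM, and Hoxb9 of a later group was at 382 CPM. Igf2 had 2881 CPM, Notch1 242, Sox2 116, Sox9 36.0 and Neurog2 7.18 CPM. The same library was set apart at the low end for Cbfb, at 178 CPM, and Th, at 82.0 CPM.

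WT_alpha3 45 stood apart for the sympathetic sum, at 1071 CPM, and Eya1, at 58.4 CPM, and at the low end for Cdh5, at 94.7 CPM, and Ntrk2, at 106 CPM. WT_beta 401 stood apart for the skeletal muscle sum, at 1314 CPM, with Myh3 at 283 CPM. WT_alpha3 55 had the isolated values 45.9 CPM of Scn11a and 0.672 CPM of Mrgprd. WT_beta 410 had the isolated value 20.01 CPM of Mkks, whose CV of 1.69% is below the 4.56% that counting alone gives.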

How the results depend on the processing

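No paired analysis was possible because the titles of the 2 wild-type groups share no number. The number of genes at 1 CPM in every library (13327 to 13619) and the share of the 10 most abundant (4.11% to 4.25%) moved little under every alternative run. Without WT_alpha3 45 and 79 and WT_beta 399 and 401, the median CV was 7.76% (12.2% with all 8), 8 genes of at least 10 CPM exceeded a CV of 100% (74 with all 8), and the sums of 2 lists differed over 4-fold between libraries (7 with all 8). In the line comparison, DESeq2 called 28 genes (17 higher, 11 lower) and the fit with all 16 libraries called 3 (2 higher, 1 lower). Without those 4 libraries the count was 1015 (284 higher, 731 lower), and without any single library 8 to 10, with 2 (without WT_alpha3 54) to 5 higher and 5 to 6 lower. The cause of these changes was not tested. For the 9 called genes, 121 refits kept the call and 14 kept the direction but missed the threshold (6 in the fit with all 16 libraries, 7 of Zfp932 and 1 of Gm15446 without a single library), and 0 turned direction. From 1 to 10 CPM counting alone gives a median CV of 10.8%, so depth limits those genes most.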
